A study of Mus musculus with 6 samples.

Results

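The Cyp2 family is the largest family of cytochrome P450 enzymes in the mouse, heme enzymes of the endoplasmic reticulum that put oxygen into drugs, toxins, steroids and fatty acids. Their electrons come from NADPH through the P450 reductase encoded by Por. In hepatocytes, several Cyp2b and Cyp2c genes are classical targets of the xenobiotic receptors CAR (Nr1i3) and PXR (Nr1i2), and others differ between male and female liver under the control of growth hormone.

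Members were the genes of the deposited table whose symbol begins with Cyp2, a letter and a digit, without pseudogenes, and that had a count above 0 in at least 1 of the 6 libraries. Of 48 such genes listed, 40 were members, out of 27893 genes with any count and 55401 listed. They fell into 12 subfamilies, with 14 genes in Cyp2c, 8 in Cyp2d, 4 each in Cyp2a and Cyp2j, 3 in Cyp2b and 1 each in Cyp2e, Cyp2f, Cyp2g, Cyp2r, Cyp2s, Cyp2t and Cyp2u. The other 8 (Cyp2b19, Cyp2b23, Cyp2c65, Cyp2j7, Cyp2j11, Cyp2j12, Cyp2j13 and Cyp2w1) had 0 counts in every library, which allows a level of up to 0.0472 to 0.0625 CPM (3 counts in a library, counting error only). CPM are counts scaled to a common library size, with edgeR's TMM factors. Nr1i2, Nr1i3 and Por were described beside the family.

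Poly(A) RNA was sequenced from fresh liver of C57BL/6 mice in 6 libraries. The 3 OP libraries came from mice treated with OP, okra polysaccharide, and the 3 HFCF libraries from mice on a high fat, cholesterol and fructose diet. The labels give neither the diet, dose and duration of the OP mice nor the sex and age of any mouse, and the comparison holds no group on standard chow. Nothing in them says that the libraries of a group came from separate animals, so the p-values rest on the spread between these libraries, which may be partly technical.

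Totals ran from 50635853 to 61918541 counts in OP libraries and from 46459980 to 58822973 in HFCF libraries. The share of counts on mitochondrially encoded mRNAs was 7.48%, 6.08% and 14.4% in OP replicates 1 to 3, against 22.0%, 18.8% and 14.1% in HFCF replicates 1 to 3, so the third library of each group stood near the other group. Hepatocyte markers were abundant everywhere (7 markers, summed level 53066 to 80497 CPM in OP and 34382 to 56596 CPM in HFCF), and 1 of the 7, Ttr, passed the test. Alb was the largest part of each sum, with 50265, 44088 and 28908 CPM in OP and 15870, 16246 and 32978 CPM in HFCF. Its groups overlapped and it did not pass. Of the other marker lists, all 3 globin genes of red cells were lower in OP, with sums of 102 to 275 CPM in OP and 722 to 1399.8 CPM in HFCF. The 5 adipocyte markers summed to 12.4 to 65.0 CPM in OP and 0 to 4.66 CPM in HFCF, and none of the 3 tested passed. Most of each OP sum was Cfd, with 12.2, 26.5 and 63.0 CPM in OP and 0, 0.104 and 3.32 CPM in HFCF. The defining markers Adipoq and Plin1 were at 0 in OP replicate 1 and in HFCF replicates 1 and 2. No marker of cholangiocytes, macrophages, endothelium, stellate cells or lymphocytes and neutrophils passed the test. The lung markers Scgb1a1 and Sftpc were at or near 0. Of the intestine markers in the same list, Fabp2 passed the test and was higher in OP. It had 184, 176 and 157 CPM in OP and 98.0, 97.8 and 109 CPM in HFCF. Lgals4, at 142 ± 14.8 CPM in OP and 121 ± 31.5 CPM in HFCF (SD), did not pass. In tissue RNA, fewer cells of a type and less RNA per cell cannot be told apart, and the part of cell composition in the Cyp2 results was not tested.

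The promoter windows of members on which the results turn are printed here to show how alike the copies are. They are RefSeq sequence of build GRCm38.p6, 250 bases before to 50 bases after the annotated start, read 5′ to 3′ on the gene's strand, and 33 of the 40 members had such a window. Capitals mark TATAAA (known as the TATA box), AGGTCA (a nuclear receptor half-site), TTATGCAA (a D-box, the element of the circadian PAR bZIP factors) and CAAAGTCCA (an HNF4 site), searched on both strands. The Cyp2b windows lie at chr7:26173159-26173458 (Cyp2b9), chr7:26061245-26061544 (Cyp2b13) and chr7:25897408-25897707 (Cyp2b10), the Cyp2a windows at chr7:26306942-26307241 (Cyp2a4) and chr7:26835089-26835388 (Cyp2a5), all on the plus strand. The Cyp2c windows lie at chr19:39812765-39813064 (Cyp2c40), chr19:39886720-39887019 (Cyp2c69) and chr19:39741052-39741351 (Cyp2c68), on the minus strand.
Cyp2b9: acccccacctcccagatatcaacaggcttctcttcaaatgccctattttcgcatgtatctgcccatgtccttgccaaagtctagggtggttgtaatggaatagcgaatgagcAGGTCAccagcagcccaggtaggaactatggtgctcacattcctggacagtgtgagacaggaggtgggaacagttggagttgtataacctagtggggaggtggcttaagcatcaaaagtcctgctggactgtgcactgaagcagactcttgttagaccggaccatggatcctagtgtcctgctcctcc
Cyp2b13: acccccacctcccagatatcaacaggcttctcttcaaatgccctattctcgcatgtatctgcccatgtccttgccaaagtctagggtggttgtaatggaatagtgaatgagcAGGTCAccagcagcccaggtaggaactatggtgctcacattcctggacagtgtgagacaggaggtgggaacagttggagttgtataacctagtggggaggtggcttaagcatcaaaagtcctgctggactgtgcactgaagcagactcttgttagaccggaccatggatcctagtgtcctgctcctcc
Cyp2b10: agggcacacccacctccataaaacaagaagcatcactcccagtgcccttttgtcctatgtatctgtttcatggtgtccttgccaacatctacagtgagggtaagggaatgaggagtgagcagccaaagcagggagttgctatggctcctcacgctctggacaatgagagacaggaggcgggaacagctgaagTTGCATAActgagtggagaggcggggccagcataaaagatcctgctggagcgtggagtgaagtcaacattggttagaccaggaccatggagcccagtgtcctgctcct
Cyp2a4: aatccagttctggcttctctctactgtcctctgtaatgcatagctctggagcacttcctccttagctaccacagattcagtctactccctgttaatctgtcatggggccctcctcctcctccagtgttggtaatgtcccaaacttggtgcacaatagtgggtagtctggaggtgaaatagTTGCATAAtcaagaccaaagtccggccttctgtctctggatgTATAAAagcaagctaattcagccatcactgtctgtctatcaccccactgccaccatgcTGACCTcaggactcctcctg
Cyp2a5: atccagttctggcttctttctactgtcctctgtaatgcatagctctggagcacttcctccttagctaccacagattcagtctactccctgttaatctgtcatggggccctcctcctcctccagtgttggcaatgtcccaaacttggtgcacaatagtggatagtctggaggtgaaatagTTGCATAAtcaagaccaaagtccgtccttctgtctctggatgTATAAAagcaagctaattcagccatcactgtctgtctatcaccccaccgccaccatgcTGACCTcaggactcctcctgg
Cyp2c40: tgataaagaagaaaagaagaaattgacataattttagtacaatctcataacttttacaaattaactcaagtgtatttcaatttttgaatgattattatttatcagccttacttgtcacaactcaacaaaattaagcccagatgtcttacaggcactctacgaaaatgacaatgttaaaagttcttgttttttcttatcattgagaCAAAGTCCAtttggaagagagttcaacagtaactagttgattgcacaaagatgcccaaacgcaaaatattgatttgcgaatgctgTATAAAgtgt
Cyp2c69: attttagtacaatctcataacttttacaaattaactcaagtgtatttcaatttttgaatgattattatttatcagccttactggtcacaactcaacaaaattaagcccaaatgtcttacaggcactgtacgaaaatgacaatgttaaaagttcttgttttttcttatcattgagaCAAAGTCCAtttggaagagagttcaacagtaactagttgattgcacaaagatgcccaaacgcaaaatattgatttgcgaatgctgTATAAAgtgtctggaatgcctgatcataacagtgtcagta
Cyp2c68: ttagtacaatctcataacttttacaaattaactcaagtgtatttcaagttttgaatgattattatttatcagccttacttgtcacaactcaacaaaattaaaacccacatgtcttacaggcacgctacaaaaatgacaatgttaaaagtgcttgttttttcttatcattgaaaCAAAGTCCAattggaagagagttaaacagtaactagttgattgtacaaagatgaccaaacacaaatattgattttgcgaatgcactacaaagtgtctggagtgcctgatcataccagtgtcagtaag

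Cyp2b9 and Cyp2b13 were 99.3% identical over this window, with 2 mismatches and no gap, and both hold AGGTCA at 138 to 133 bases before the start (-138 to -133). Cyp2b10 was 70.7% identical to either and holds no AGGTCA in the window. Cyp2a4 and Cyp2a5 were 97.7% identical, and the TTATGCAA of Cyp2a5 (on the minus strand, -71 to -64) has its counterpart in Cyp2a4 (-70 to -63). Cyp2c40 and Cyp2c69 had 3 mismatches over the bases that aligned, with 60 gap columns because their annotated starts are offset, and Cyp2c68 was 91.1% identical to Cyp2c69 with 19 mismatches. In Cyp2c68, CAAAGTCCA (-77 to -69) overlaps a CCAAT (-71 to -67), which is not in capitals.

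Over all 32851 promoter windows of the table, 13.6% held TATAAA, 16.3% AGGTCA, 0.743% TTATGCAA and 0.475% CAAAGTCCA, both strands counted. Among the 34 windows of members (Cyp2c39 has 2), 20 held TATAAA, 11 AGGTCA, 3 TTATGCAA (Cyp2a4, Cyp2a5 and Cyp2b10) and 5 CAAAGTCCA (Cyp2c40, Cyp2c67, Cyp2c68, Cyp2c69 and Cyp2c70). CCAAT stood in 37.4% of all windows and in 17 of the members' windows. The direct repeat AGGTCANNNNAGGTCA was found in 5 windows of the table and in none of the members', and TTATGTAA in 0.938% and in none of the members'. These matches are letters in a window, and since the members are alike in sequence their matches are not independent of each other.

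Together the Cyp2 genes took 2.09% ± 0.237 of all counts in OP libraries and 1.32% ± 0.185 in HFCF libraries (SD, n = 3 each). Their summed level was 22753, 20202 and 19544 CPM in OP replicates 1 to 3, against 12406, 12280.1 and 14785 CPM in HFCF replicates 1 to 3. All 3 OP sums lay above all 3 HFCF sums. HFCF replicate 3 had the highest Cyp2 sum and the lowest mitochondrial share of its group, and OP replicate 3 had the lowest sum and the highest share of its group.

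Across single genes, 37 of the 40 members passed the filter on low counts and were tested. At a Benjamini-Hochberg adjusted p under 0.05 (edgeR's quasi-likelihood test, adjusted over 17394 genes), 11 were higher in OP and 2 lower, against 3.26% of all tested genes higher and 3.47% lower (6.73% in either direction). With the 3 members that were not tested counted in, unlike in the background, the 11 were 27.5% of the 40 members and the 2 were 5% of them. The median log2 fold change of the 37 was 0.34, with 30 above 0 and 7 below, against a median of 0.019 over all tested genes. OP libraries all lay above HFCF libraries for 16 of the 37 and all below for 2, where 15.8% and 15.4% of all tested genes did so (31.2% in either direction). HFCF replicate 3 was the highest HFCF library for 25 of the 37 members and for 38.6% of all tested genes. The 3 members not tested for lack of counts were Cyp2b10, Cyp2c66 and Cyp2d34. Cyp2b9 and Cyp2b13, among the 11 higher members, needed their OP libraries to pass the low-count filter.

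**Figure D1:**
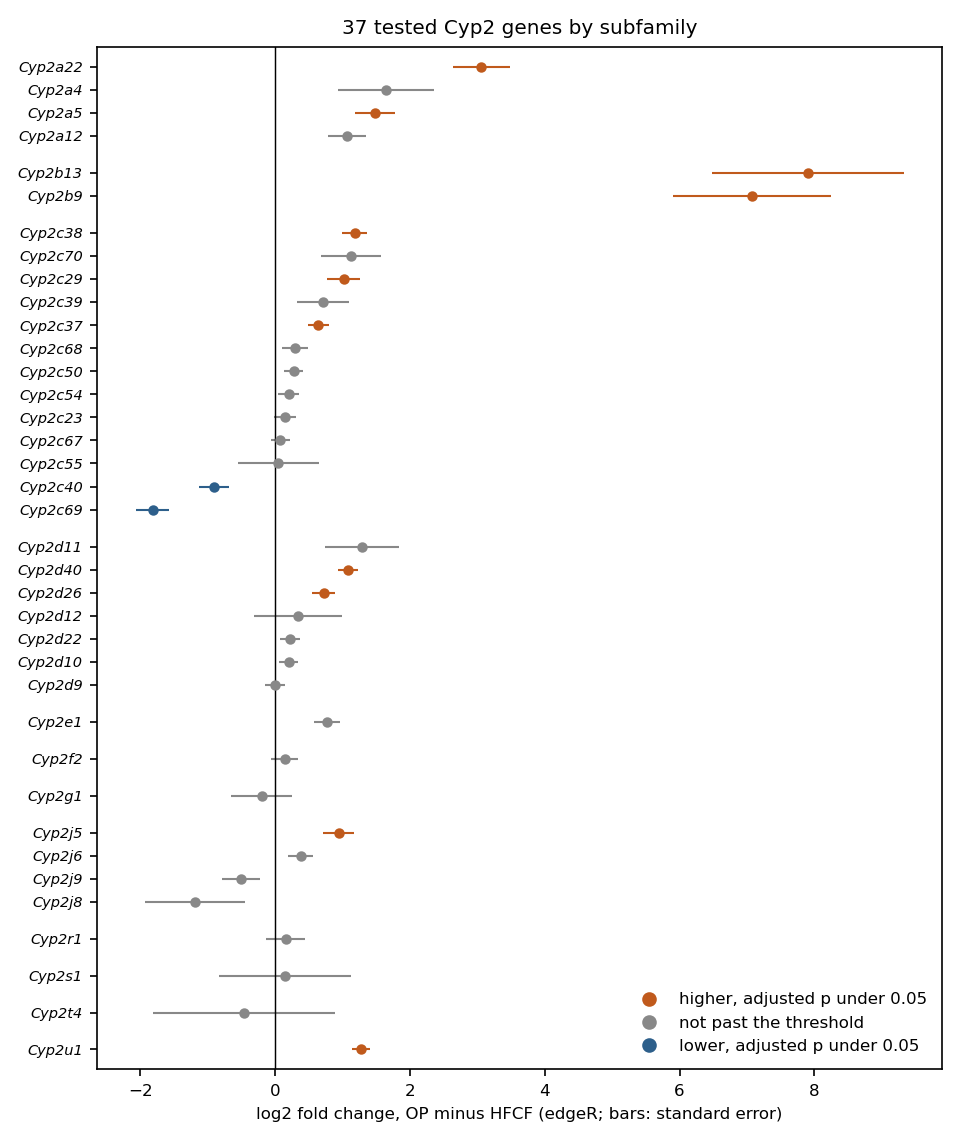
Log2 fold change, OP minus HFCF, of the 37 tested Cyp2 genes, grouped by subfamily, with the standard error of edgeR's fit as bars; colours mark an adjusted p under 0.05. The 11 higher genes come from the Cyp2a, Cyp2b, Cyp2c, Cyp2d, Cyp2j and Cyp2u subfamilies and the 2 lower ones are Cyp2c40 and Cyp2c69; the value of Cyp2b13, at 0 in all HFCF libraries, depends on the prior count of the fit.

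Subfamily sums add up the coding copies of a subfamily, so they keep reads that were given to the wrong one of these copies, but not reads that were dropped or given to a pseudogene. They were above all HFCF sums in all 3 OP libraries for Cyp2a, Cyp2b, Cyp2c, Cyp2d, Cyp2e, Cyp2j and Cyp2u. Cyp2a summed to 2501 ± 672 CPM in OP and 941 ± 329 CPM in HFCF, a ratio of 2.66. Cyp2u, with its single gene, stood at 2.43 times and Cyp2e at 1.70 times the HFCF level. The ratio of means was 1.55 for Cyp2j (389 ± 40.2 CPM in OP, 250.4 ± 39.7 CPM in HFCF) and 1.33 for Cyp2c (2517 ± 226 CPM in OP, 1888 ± 225 CPM in HFCF). Cyp2d had the smallest ratio of those 7, 1.21, with 3984 ± 63.7 CPM in OP and 3281 ± 97.3 CPM in HFCF (SD, n = 3 each throughout). Cyp2b was near 0 in HFCF and is described by its genes. Groups overlapped for Cyp2f, Cyp2g, Cyp2r, Cyp2s and Cyp2t. These sums were compared without a test.

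**Figure D2:**
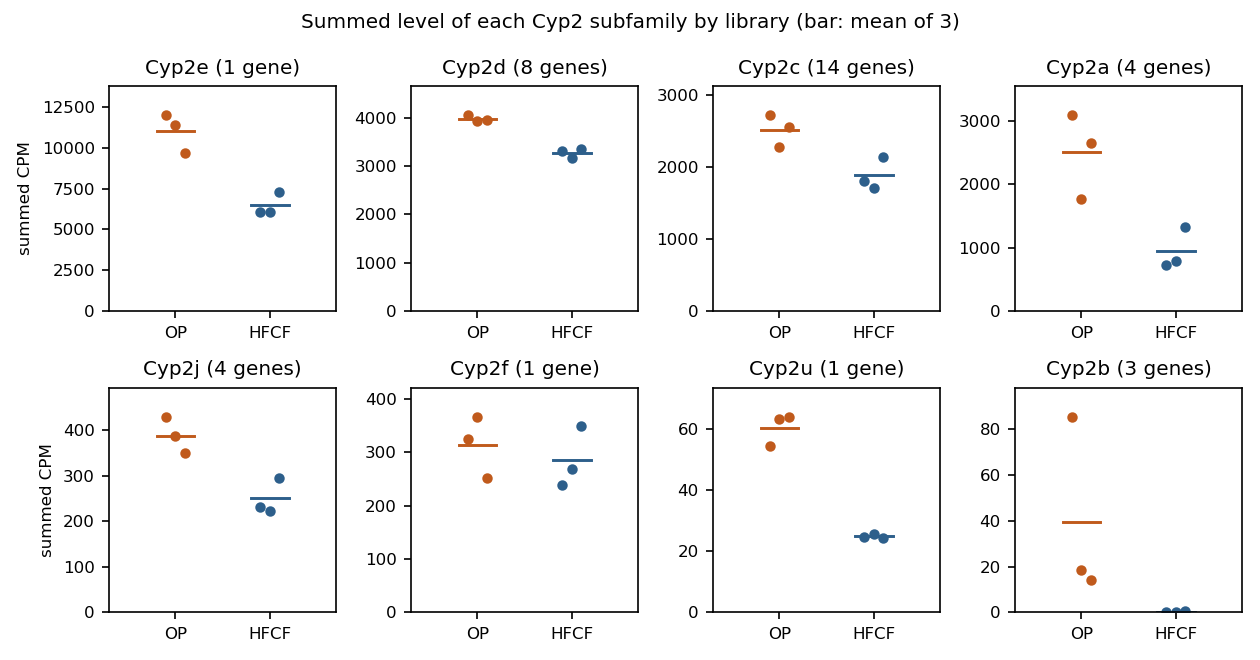
Summed level in CPM (linear axes from 0) of 8 Cyp2 subfamilies by library, OP left of HFCF, each point a library and each bar the mean of 3. Cyp2f is the panel in which the groups overlap; OP replicate 1 stands apart in Cyp2b, at 85.4 CPM against 18.4 and 14.0 CPM in the other OP libraries.

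Compared per kilobase of merged exon length (CPM per kb), so that genes can be ranked, Cyp2e1 had the highest mean of the members in both groups, 5107 CPM per kb in OP and 3002 CPM per kb in HFCF. In OP the next mean levels were those of Cyp2a5 (897), Cyp2d26 (705), Cyp2d9 (544), Cyp2d10 (512) and Cyp2c37 (255 CPM per kb). In HFCF they were those of Cyp2d9 (545), Cyp2d10 (446), Cyp2d26 (428), Cyp2a5 (321) and Cyp2c50 (171 CPM per kb). By group mean, Cyp2a5 thus stood above these Cyp2d genes in OP and below them in HFCF. In OP replicate 2, however, Cyp2a5 (583 CPM per kb) lay below Cyp2d26 (687.5 CPM per kb). The order of neighbours also depends on the length used: over the 6 libraries, with the longest transcript as gene length, Cyp2d9 (845 CPM per kb) stood above Cyp2a5 (627) and Cyp2d26 (597), and Cyp2c50 (303) above Cyp2c37 (210). Cyp2e1 alone made up 53.2%, 56.8% and 49.9% of the family's summed CPM per kb in OP replicates 1 to 3, against 49.4%, 50.1% and 49.7% in HFCF replicates 1 to 3. Cyp2a took 12.8%, 8.03% and 13.0% in OP and 5.48%, 5.89% and 8.25% in HFCF, so that OP replicate 2 lay below HFCF replicate 3. Cyp2d took 18.6%, 20.3% and 20.9% in OP, below its 26.7%, 26.0% and 23.1% in HFCF. Cyp2c likewise held a smaller share, with 11.7%, 11.0% and 13.1% in OP and 14.8%, 14.1% and 14.6% in HFCF. Shares within the family add up to 100, so a smaller share of Cyp2d and Cyp2c stood beside a higher summed level.

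**Figure D3:**
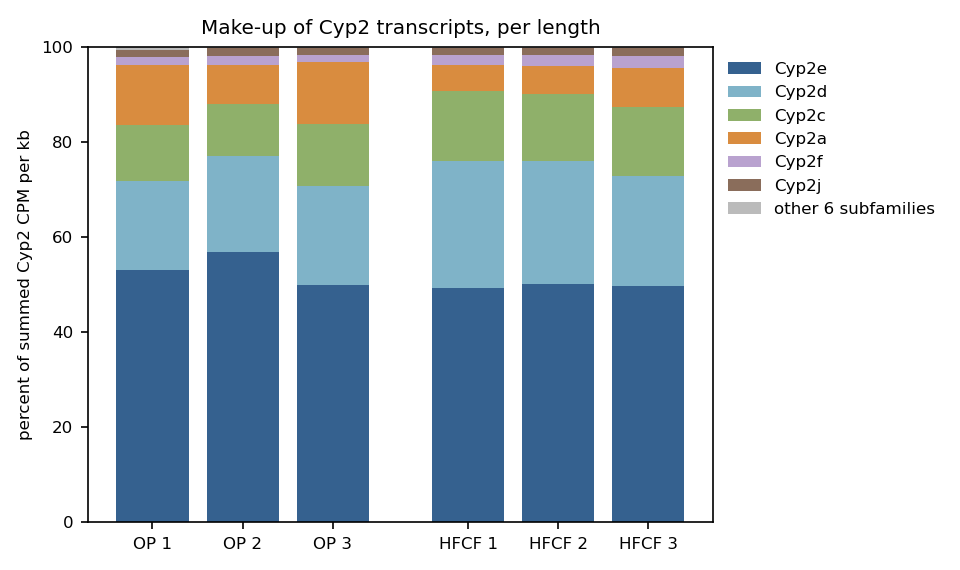
Percent of summed Cyp2 CPM per kb held by each subfamily in each library, OP libraries left of HFCF libraries. Cyp2e, which is Cyp2e1 alone, holds 49.4% to 56.8% in every library, and Cyp2d holds less in each OP library (18.6% to 20.9%) than in each HFCF library (23.1% to 26.7%).

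In the Cyp2a subfamily, enzymes of coumarin, nicotine and steroid hydroxylation, 2 of 4 genes rose. Cyp2a5, the coumarin 7-hydroxylase, had 2267, 1209.5 and 2104 CPM in OP replicates 1 to 3, against 528, 551 and 919.6 CPM in HFCF replicates 1 to 3. No OP library lay within the HFCF range, and the log2 fold change was 1.48 ± 0.303 (SE; edgeR quasi-likelihood, BH-adjusted p = 0.0285). Cyp2a22, a close relative of Cyp2a12, had 141, 43.5 and 76.6 CPM in OP and 8.15, 8.92 and 14.1 CPM in HFCF. That was 3.06 ± 0.426 on the log2 scale (edgeR quasi-likelihood, BH-adjusted p = 0.0089), and the OP libraries differed widely among themselves. Cyp2a12, a steroid 7α-hydroxylase that also acts on bile acids, had 672, 511 and 468 CPM in OP and 186, 221 and 384 CPM in HFCF without overlap, and just missed the threshold at 1.06 ± 0.280 (edgeR quasi-likelihood, BH-adjusted p = 0.0589). DESeq2 and limma-voom called it, with adjusted p of 0.00146 and 0.0394. Cyp2a4, the steroid 15α-hydroxylase of female liver, overlapped between groups, with 7.38, 2.67 and 1.81 CPM in OP and 1.29, 0.312 and 2.18 CPM in HFCF. Its coding sequence is 98.4% identical to that of Cyp2a5, and that of Cyp2a12 97.0% identical to Cyp2a22. The split of reads between these copies is thus uncertain. At most 5.79% of the 150-base windows of any of the 4 transcripts occur unchanged in the transcript of another Cyp2 gene or pseudogene. Without HFCF replicate 1 or 2, Cyp2a22 missed the threshold (log2 fold change 2.91 and 2.92). Cyp2a5 kept its call without OP replicate 2 or HFCF replicate 3 and lost it without any of the other 4 libraries, at log2 fold changes of 1.32 to 1.79 over the 6.

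Of the 3 Cyp2b genes, Cyp2b9 and Cyp2b13 rose and were at or near 0 in HFCF. Cyp2b9, a steroid hydroxylase that adult female liver expresses more than male liver, had 5063, 1128 and 650 counts in OP replicates 1 to 3, against 0, 3 and 44 counts in HFCF replicates 1 to 3. In CPM these were 84.4, 17.7 and 13.5 in OP and 0, 0.0624 and 0.726 in HFCF. OP replicate 1 held most of the OP counts, and HFCF replicate 3 most of the HFCF counts. With so few HFCF counts, Cyp2b9 needed its OP libraries to pass the low-count filter, so its call is not free of that selection. The log2 fold change was 7.08 ± 1.17 (edgeR quasi-likelihood, BH-adjusted p = 0.0147). It ran from 5.81 without OP replicate 1 to 10.17 without HFCF replicate 3. The call was lost without OP replicate 1 or HFCF replicate 1 or 2 (log2 fold change 6.55 and 6.60), and with limma-voom (adjusted p = 0.198). Cyp2b13, its neighbour in sequence, had 55, 14 and 24 counts (0.916, 0.220 and 0.500 CPM) in OP and 0 in all 3 HFCF libraries. Against a floor of 3 counts per HFCF library its mean was 9.40-fold higher. That floor covers counting error only and would not hold if read pairs gave several counts. With no HFCF count, Cyp2b13 passed the low-count filter through its OP libraries alone, and it then passed the test (edgeR quasi-likelihood, BH-adjusted p = 0.0295). It kept its call without OP replicate 2 and lost it without any other library, with an adjusted p of up to 0.127. Cyp2b10, the classical CAR target that phenobarbital induces, had 5, 26 and 0 counts in OP and 0, 0 and 4 counts in HFCF, too few to test.

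Coding sequences of Cyp2b9 and Cyp2b13 are 92.7% identical, and those of Cyp2b10 are 86.2% identical to Cyp2b9 and 87.1% to Cyp2b13. None of the 150-base windows of these 3 transcripts occurs unchanged in the transcript of another Cyp2 gene or pseudogene. Transcripts outside the family were not searched. OP replicate 1, which had the most Cyp2b9 counts, had no Adipoq or Plin1 counts and the lowest sum of adipocyte markers in its group. Whether other tissue in the samples contributed to the Cyp2b9 counts was not tested. Transcripts of the Y chromosome (Ddx3y, Eif2s3y, Kdm5d and Uty) were present in all 6 libraries at 8.43 to 62.1 CPM in OP and 14.3 to 72.7 CPM in HFCF, and Xist lay between 0.456 and 0.583 CPM in OP and between 0 and 0.686 CPM in HFCF, and none of these 5 passed the test.

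**Figure D4:**
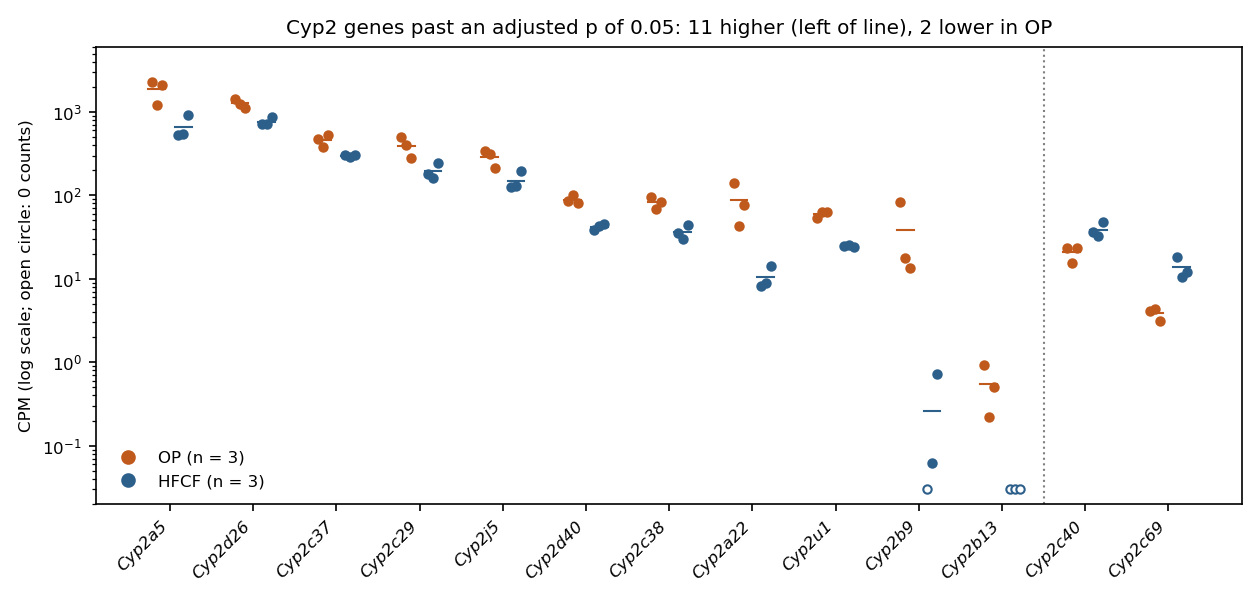
Level in CPM (log axis) of the 13 Cyp2 genes past the threshold, OP left of HFCF for each gene, with each filled point a library, each bar the mean of 3 libraries and open circles libraries with 0 counts. In all 13 the OP and HFCF libraries do not overlap; Cyp2b9 and Cyp2b13 are the genes with HFCF libraries at 0.

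Among the 14 Cyp2c genes, whose products epoxidize arachidonic acid and hydroxylate drugs, steroids and bile acids, 3 rose, 2 fell and 8 did not pass the test. Cyp2c38 had 96.7, 67.8 and 83.2 CPM in OP and 35.6, 30.3 and 43.6 CPM in HFCF, a log2 fold change of 1.18 ± 0.191 (edgeR quasi-likelihood, BH-adjusted p = 0.0136). Cyp2c29, an arachidonate epoxygenase and CAR target, had 506, 399.8 and 277 CPM in OP and 179.7, 159.7 and 246 CPM in HFCF, or 1.02 ± 0.249 on the log2 scale (edgeR quasi-likelihood, BH-adjusted p = 0.0488). In Cyp2c29, OP replicate 3 and HFCF replicate 3 came closest to each other. Cyp2c37, which also epoxidizes arachidonic acid, had 476, 385 and 536 CPM in OP and 301, 289 and 306 CPM in HFCF, a change of 0.64 ± 0.158 (edgeR quasi-likelihood, BH-adjusted p = 0.0489). Its HFCF libraries differed from each other by far less than its OP libraries.

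The 2 genes that fell are a related pair. Cyp2c69 had 4.15, 4.32 and 3.16 CPM in OP, against 18.4, 10.6 and 12.1 CPM in HFCF, and fell by 1.82 ± 0.25 on the log2 scale (edgeR quasi-likelihood, BH-adjusted p = 0.00864). Cyp2c40, which makes 16-HETE from arachidonic acid, had 23.5, 15.4 and 23.3 CPM in OP and 36.1, 32.3 and 48.4 CPM in HFCF, a log2 fold change of -0.91 ± 0.219 (edgeR quasi-likelihood, BH-adjusted p = 0.0463). Both are known as more abundant in female than in male mouse liver. Their closest relatives did not pass: Cyp2c67 had 175, 189 and 177 CPM in OP and 159, 157 and 196 CPM in HFCF, and Cyp2c68 had 241, 168 and 196 CPM in OP and 157, 138 and 199 CPM in HFCF. Their log2 fold changes were 0.079 ± 0.141 and 0.30 ± 0.192 (SE). These 4 genes are the copies most exposed to shared reads. Of the 150-base windows of the Cyp2c40 transcript 29.1% (482) occur unchanged in the transcript of another Cyp2 gene or pseudogene, 256 of them in Cyp2c69. Of those of Cyp2c69 22.5% (337) do so, 256 of them in Cyp2c40. The shares are 13.0% for Cyp2c67 and 8.83% for Cyp2c68, which also share most with Cyp2c40. The coding sequence of Cyp2c69 is 97.7% identical to that of Cyp2c67, 96.5% to Cyp2c68 and 92.4% to Cyp2c40. How reads were split among these 4 genes is thus uncertain. With it the 2 lower levels are uncertain too, which are small beside those of Cyp2c67 and Cyp2c68.

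Cyp2c50, which held the most counts of the Cyp2c genes, had 621, 552 and 642 CPM in OP and 496, 473 and 529.9 CPM in HFCF. Its groups did not overlap, yet the difference of 0.28 ± 0.140 on the log2 scale missed the threshold (edgeR quasi-likelihood, BH-adjusted p = 0.26). Cyp2c70, which forms the muricholic acids of mouse bile, had 70.1, 39.2 and 77.9 CPM in OP and 17.4, 17.5 and 51.0 CPM in HFCF. HFCF replicate 3 lay within the OP range, and the log2 fold change was 1.12 ± 0.442 (edgeR quasi-likelihood, BH-adjusted p = 0.158); without that library it was 1.84 with an adjusted p of 0.025. Cyp2c23 (an arachidonate epoxygenase), Cyp2c54, Cyp2c39 (a retinoic acid hydroxylase) and Cyp2c55 overlapped between groups, with log2 fold changes of 0.15 ± 0.165, 0.20 ± 0.155, 0.71 ± 0.389 and 0.049 ± 0.606 (SE). Cyp2c66 had 2 counts, both in OP replicate 3. Cyp2c69 passed the test without each library in turn (log2 fold change -2.00 to -1.55). Cyp2c40 missed the threshold each time a library was left out (-1.06 to -0.72). Cyp2c38 lost its call without OP replicate 1 or HFCF replicate 1 or 2 (1.03 to 1.33 over all 6), Cyp2c29 without these or OP replicate 2 (0.80 to 1.22), and Cyp2c37 without any library but OP replicate 2 (0.53 to 0.76).

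Of the 8 Cyp2d genes, the relatives of the human drug enzyme encoded by CYP2D6, 2 rose, 5 did not pass and 1 was not tested. Cyp2d26 had 1437, 1232 and 1124 CPM in OP and 709, 721 and 870.1 CPM in HFCF, a log2 fold change of 0.72 ± 0.167 (edgeR quasi-likelihood, BH-adjusted p = 0.0415). Cyp2d40 had 85.2, 101 and 81.8 CPM in OP and 38.0, 43.2 and 45.7 CPM in HFCF, a change of 1.08 ± 0.147 (edgeR quasi-likelihood, BH-adjusted p = 0.0085). Its libraries lay close together within each group. Cyp2d9, the steroid 16α-hydroxylase of male liver, held the most counts of the Cyp2d genes and had 1331, 1441 and 1566 CPM in OP and 1522, 1402 and 1422 CPM in HFCF. The groups overlapped and the log2 fold change was -0.00278 ± 0.150 (edgeR quasi-likelihood, BH-adjusted p = 0.994).

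Cyp2d10 had 803, 841 and 887 CPM in OP and 748, 723 and 733 CPM in HFCF without overlap, and the difference of 0.20 ± 0.136 on the log2 scale missed the threshold (edgeR quasi-likelihood, BH-adjusted p = 0.405). Cyp2d22 likewise did not overlap, with 377, 295 and 296 CPM in OP and 287, 262 and 282 CPM in HFCF, and was at 0.22 ± 0.150 (edgeR quasi-likelihood, BH-adjusted p = 0.4). Cyp2d11 had 11.2, 7.83 and 1.77 CPM in OP and 2.51, 3.51 and 2.53 CPM in HFCF, with OP replicate 3 below the HFCF libraries; without that library its log2 fold change was 1.74, with an adjusted p of 0.0186. Cyp2d12 varied more within groups than between them, with 11.9, 16.7 and 5.00 CPM in OP and 2.80, 18.2 and 5.63 CPM in HFCF. All 19 counts of Cyp2d34 came from OP replicate 3. Cyp2d26 lost its call without OP replicate 1 or 2 or HFCF replicate 1 or 2 (0.62 to 0.82 over the 6 libraries left out), and Cyp2d40 without HFCF replicate 1 (1.01) or 2 (1.05).

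Cyp2e1, the oxidase of ethanol, acetone and many small solvents, which sits in pericentral hepatocytes, had 11986, 11381 and 9694 CPM in OP replicates 1 to 3, against 6063, 6091 and 7284 CPM in HFCF replicates 1 to 3. The lowest OP library lay well above the highest HFCF library. Its log2 fold change of 0.77 ± 0.197 narrowly missed the threshold (edgeR quasi-likelihood, BH-adjusted p = 0.0554). It passed with DESeq2 (adjusted p = 9.30e-05), with limma-voom (0.0298), with a filter of 1 CPM in 3 libraries (0.0442), and with mitochondrially encoded genes left out before scaling (0.0426). Among fits that left out a library, it passed without OP replicate 3 (0.85) or HFCF replicate 3 (0.86).

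In the Cyp2j subfamily, which epoxidizes arachidonic and linoleic acid, 1 of 4 genes rose. Cyp2j5, its main liver enzyme, had 336, 309 and 214 CPM in OP and 125, 129 and 193 CPM in HFCF, a log2 fold change of 0.94 ± 0.232 (edgeR quasi-likelihood, BH-adjusted p = 0.0488). OP replicate 3 and HFCF replicate 3 were the libraries nearest the other group, and the call was lost without any library but these (0.81 to 1.17 over the 6). Cyp2j6 had 63.2, 54.9 and 82.5 CPM in OP and 49.3, 45.5 and 59.1 CPM in HFCF, with OP replicate 2 inside the HFCF range. Cyp2j9 had 29.8, 22.4 and 51.5 CPM in OP and 55.3, 48.4 and 43.2 CPM in HFCF; it did not pass (edgeR quasi-likelihood, BH-adjusted p = 0.31), and without OP replicate 3 it did, at -0.91 (adjusted p = 0.0374). Cyp2j8 was below 2 CPM throughout, with 0.233, 0.236 and 0.833 CPM in OP and 1.62, 0.998 and 0.330 CPM in HFCF.

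Cyp2u1, which hydroxylates the terminal carbons of long-chain fatty acids such as arachidonic acid, had 54.2, 63.1 and 63.9 CPM in OP and 24.7, 25.8 and 24.2 CPM in HFCF. The spread within each group was small beside the gap, and the log2 fold change was 1.28 ± 0.132 (edgeR quasi-likelihood, BH-adjusted p = 0.00345), the smallest adjusted p among the members. It passed the test without each library in turn, at 1.24 to 1.35. It shares 548 exon bases with the opposite-strand gene 4930534D22Rik, which had 4 to 15 counts in OP and 10 to 17 in HFCF.

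Cyp2f2, which oxidizes naphthalene in lung club cells and is periportal in liver, had 325, 366 and 251 CPM in OP and 238, 268 and 348 CPM in HFCF, overlapping, with a log2 fold change of 0.14 ± 0.199 (edgeR quasi-likelihood, BH-adjusted p = 0.711). Cyp2r1, a vitamin D 25-hydroxylase, had 6.08, 7.11 and 4.64 CPM in OP and 4.19, 4.41 and 7.41 CPM in HFCF. These groups overlapped as well. Cyp2g1, an enzyme of olfactory mucosa, had 1.02, 0.755 and 0.770 CPM in OP and 0.767, 0.644 and 1.50 CPM in HFCF. Cyp2s1, a mostly extrahepatic enzyme, had 62, 7 and 3 counts in OP and 16, 16 and 26 counts in HFCF, most of the OP counts lying in replicate 1. Cyp2t4 had 7, 12 and 0 counts in OP and 0, 12 and 11 in HFCF. None of these 5 passed the test, and the log2 fold changes of Cyp2r1, Cyp2g1, Cyp2s1 and Cyp2t4 were 0.15 ± 0.283, -0.20 ± 0.457, 0.15 ± 0.978 and -0.46 ± 1.35 (SE).

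The receptors and the reductase did not pass the test. Nr1i3, which encodes CAR, had 1535, 1109 and 1327 CPM in OP and 1044, 1033 and 1213 CPM in HFCF, a log2 fold change of 0.27 ± 0.174 (edgeR quasi-likelihood, BH-adjusted p = 0.378). It shares 3304 exon bases with Tomm40l on the opposite strand, and the sources used here do not give whether the counting used strand. Nr1i2, which encodes PXR, had 154, 93.7 and 104 CPM in OP and 90.5, 87.7 and 105 CPM in HFCF, or 0.32 ± 0.202 (edgeR quasi-likelihood, BH-adjusted p = 0.376). OP replicate 1 was the highest library for both receptors. Por had 549, 433 and 400.4 CPM in OP and 437, 396 and 410.0 CPM in HFCF, or 0.15 ± 0.160 (edgeR quasi-likelihood, BH-adjusted p = 0.6). In 15 genes of P450 electron transfer and heme supply, Por included, 4 rose and 0 fell, with a median of 0.53. They were Cyb5b (1.04 ± 0.229), Cyb5r3 (0.68 ± 0.167), the cytochrome b5 reductase, Pgrmc1 (0.69 ± 0.165), a heme-binding partner of P450 enzymes, and Alad (0.95 ± 0.140), the second enzyme of heme synthesis, on the log2 scale. Cyb5a, which passes electrons to several Cyp2 enzymes, had 1342, 1185 and 1246 CPM in OP and 784, 745 and 920.0 CPM in HFCF, and narrowly missed the threshold (edgeR quasi-likelihood, BH-adjusted p = 0.0503). Alas1, which sets the pace of heme synthesis, had 751, 639 and 1092 CPM in OP and 381, 355 and 606 CPM in HFCF (edgeR quasi-likelihood, BH-adjusted p = 0.0838). Ppox, also an enzyme of heme synthesis, went the other way without overlap. It had 45.7, 38.4 and 52.9 CPM in OP and 73.2, 72.6 and 60.6 CPM in HFCF (edgeR quasi-likelihood, BH-adjusted p = 0.0658). Hmox1, which breaks heme down, was higher in OP without overlap (0.63 ± 0.169; edgeR quasi-likelihood, BH-adjusted p = 0.0608).

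Genes outside the family were counted in the same way, each list beside the background of 3.26% higher and 3.47% lower. Of 25 tested targets of CAR and PXR outside Cyp2, 4 rose (Gstt1, Ugt2b34, Aldh1a1 and Aldh1a7) and 3 fell (Cyp3a11, Cyp3a25 and Slco1a4), with a median log2 fold change of 0.17. Cyp3a11, the main PXR target of mouse liver, had 1238, 1006 and 992 CPM in OP and 1745, 1749.9 and 2091 CPM in HFCF. Of 30 regulators of hepatic P450 genes, Nfe2l2 (0.84 ± 0.174) and Bcl6 (1.84 ± 0.260) rose and Ppargc1a (-2.25 ± 0.161) and Cux2 (-3.85 ± 0.388) fell. Bcl6, a repressor of growth hormone signalling that is higher in male liver, had 61.0, 37.5 and 31.7 CPM in OP and 13.0, 13.6 and 9.82 CPM in HFCF. Cux2, a factor higher in female liver that activates female-biased genes in mice, had 1.30, 0.519 and 0.541 CPM in OP and 12.8, 12.0 and 9.49 CPM in HFCF. Cyp2b9 and Cux2, both female-biased, thus moved in opposite directions.

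Of 18 female-biased liver genes listed outside Cyp2, 12 were tested. Among these, 5 rose (Hao2, Slc22a26, Slc22a27, Slc22a29 and Prlr) and Cux2 fell, with a median of 0.94. In HFCF, Hao2 had 0 counts throughout, Slc22a26 9, 10 and 38, Slc22a27 0, 10 and 32, and Slc22a29 22, 0 and 13. Hao2 and these Slc22a genes needed their OP libraries to pass the low-count filter. The number that rose and the median thus depend on that selection. Of 16 male-biased genes, Nudt7 rose and C6 and Gstp1 fell, with a median of -0.41. Of the female-biased Cyp2 members, Cyp2b9 and Cyp2b13 rose, Cyp2c40 and Cyp2c69 fell, and Cyp2a4 overlapped between groups. The rises rest on genes that needed their OP libraries to pass the low-count filter. The levels of Cyp2c40 and Cyp2c69 are uncertain through shared reads, and Cyp2c40 lost its call whichever library was left out. Of 11 pericentral hepatocyte genes outside Cyp2, 4 rose (Gulo, Lect2, Rgn and Aldh3a2) and 0 fell, with a median of 0.39. Of 13 periportal genes, Pigr rose and 6 fell, Sds, Sdsl, Hal, Asl and Cps1 among them, with a median of -1.35. Neither of 2 tested epoxide hydrolases passed, and of 5 flavin monooxygenases, which share many substrates with P450 enzymes, Fmo4 fell (-1.17 ± 0.246).

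The mitochondrial mRNA share was followed through the fit because it differed between the groups. With this share as a covariate, Cyp2u1 was the only member called, at 1.36 (edgeR quasi-likelihood, BH-adjusted p = 0.0273), while 110 genes were higher and 97 lower in all. Leaving aside Cyp2b13, whose fitted value depends on the prior count, the called members whose log2 fold change moved most were Cyp2b9 (then 4.80), Cyp2j5 (0.25) and Cyp2c29 (0.33). The others were at 2.64 (Cyp2a22), 1.32 (Cyp2a5), 1.06 (Cyp2c38), 0.84 (Cyp2c37), 0.81 (Cyp2d40), 0.43 (Cyp2d26), -0.94 (Cyp2c40) and -1.75 (Cyp2c69). Of those that narrowly missed the threshold, Cyp2e1 was then at 0.46 and Cyp2a12 at 0.39. The shares of the groups meet only in replicate 3 of each, so the parts of share and group in these values cannot be told apart. With mitochondrially encoded genes left out before scaling, 12 members were higher and 2 lower.

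**Figure D5:**
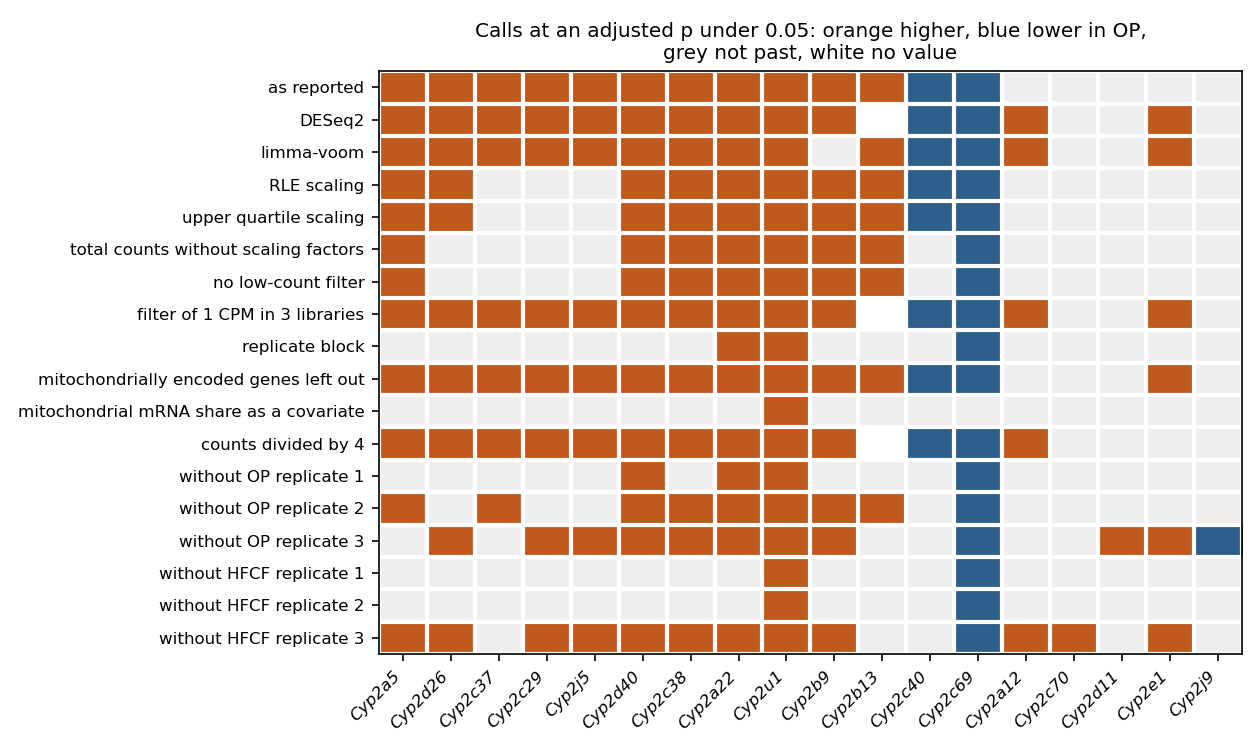
Calls at an adjusted p under 0.05 for the 18 Cyp2 genes called in at least 1 fit, by setting, with orange for higher in OP, blue for lower in OP, grey for not past the threshold and white for no value. Cyp2u1 is called in every row and Cyp2c69 in all but the mitochondrial covariate, and the rows without HFCF replicate 1 or 2 hold these 2 calls alone.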

How the data were processed

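Per the labels' protocols, liver RNA was selected on oligo(dT) beads and made into dUTP-marked, paired-end libraries. The authors deposited a table of whole-number counts per gene, 1 column per library, made with cutadapt 1.9, FastQC and build GRCm39 per the submitters' processing notes. The sources used here give neither the aligner nor the counting tool, nor its use of strand. In every library more genes stood at 4 counts (827 to 930) than at 3 (427 to 558) or 5 (233 to 311), so some read pairs may have given several counts, which would overstate depth.

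Symbols matched 55141 of 55401 Ensembl identifiers. Members and gene lists were chosen with earlier results of these data known, and 1 gene of the pericentral list is not reported here. Genes kept by filterByExpr (17394) were tested with edgeR 4.0.16 (glmQLFTest, two-sided, TMM scaling, R 4.3.3), with Benjamini-Hochberg adjustment (BH) over all of them and a threshold of 0.05. The standard error is the size of the log2 fold change over the root of its F statistic. Levels between genes use merged exon lengths of GENCODE M21 (GRCm38), which also gave exon overlaps, coding identity and shared 150-base windows. The windows were searched only among transcripts of Cyp2 genes, Cyp2 pseudogenes, Nr1i2, Nr1i3 and Por. Promoters are from RefSeq (GRCm38.p6), so their coordinates are of another build than the counts. For a gene at 0 throughout a group, the fold was bounded against 3 counts per library. Intervals and floors cover counting error only, and totals of 46459980 to 61918541 counts set a floor of 0.0472 to 0.0625 CPM.

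All Cyp2 members are named, with values per library for those past the threshold, for those at a mean of at least 1 CPM whose groups do not overlap and for the most abundant of each subfamily; values of other members were added after they were seen. Of each list the members past the threshold are named, or 6 of them by smallest p. Cyb5a, Alas1, Ppox, Hmox1, Cfd, Lgals4 and the library values of Fabp2, Cyp3a11, Bcl6 and Cux2 were chosen after their values were seen. Replicates were compared by chi-square per degree of freedom over the genes that reached 20 counts in the pair (46.2 for HFCF replicates 1 and 2, 148 to 350 for the other pairs), so no pair agreed within sampling noise. Alternatives were DESeq2 1.42.0, limma-voom (limma 3.58.1), other scalings, filters and thresholds, the replicate number as a block, leaving out each library, and those named in the closing section. The fits were tested on simulated data. Figures were drawn with matplotlib 3.10.9.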

Additional observations from a re-analysis of the deposited data

How the results depend on the processing

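Over all tested genes, 567 were higher and 603 lower in OP. These counts were 1269 and 1265 with DESeq2, 298 and 400 without a low-count filter, 110 and 97 with the mitochondrial mRNA share as a covariate, 72 and 92 at an adjusted p under 0.01, and 1322 and 1230 at an adjusted p under 0.1. Leaving out 1 library gave 34 to 655 higher and 54 to 655 lower. Of Cyp2 members, 11 were higher and 2 lower. There were 7 and 1 with total counts in place of scaling factors, 7 and 1 without a low-count filter, 1 and 0 with the mitochondrial covariate, and 3 and 1 at an adjusted p under 0.01; leaving out 1 library gave 1 to 12 higher and 1 to 2 lower, the lowest without HFCF replicate 1 or 2. DESeq2, limma-voom and the filter of 1 CPM in 3 libraries each gave 12 higher and 2 lower. DESeq2 gave no adjusted p for Cyp2b13. The cause of these differences was not tested.

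Deviations from group means of same-numbered libraries correlated at 0.023, -0.126 and -0.164 across genes, and those of differently numbered libraries at -0.152 to 0.248. With so few libraries these values show no pairing by replicate number but cannot exclude one. With the replicate block, 87 genes were higher and 93 lower, among them 2 Cyp2 genes higher (Cyp2a22 and Cyp2u1) and 1 lower (Cyp2c69).

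The Cyp2d sum was at a log2 ratio of 0.24 with upper quartile scaling, against 0.28 as reported. Leaving out 1 library gave 0.22 to 0.30 for Cyp2d, 5.83 to 10.30 for Cyp2b, -2.08 to 0.65 for Cyp2s and -1.30 to 0.10 for Cyp2t. No called member changed sign in any alternative. Signs of members that were not called turned with the mitochondrial covariate for Cyp2c23 (-0.068), Cyp2c67 (-0.11), Cyp2d11 (-0.46), Cyp2d12 (-1.23), Cyp2d9 (0.14), Cyp2f2 (-0.45), Cyp2j8 (1.13), Cyp2j9 (0.26), Cyp2r1 (-0.60) and Cyp2s1 (-1.68). Cyp2s1 was also at -0.78 with limma-voom and at -0.83 with the replicate block. Leaving out 1 library turned the sign of Cyp2c55 (-0.36 to 0.59), Cyp2c67 (-0.013 to 0.19), Cyp2d12 (-0.088 to 1.36), Cyp2d9 (-0.063 to 0.054), Cyp2g1 (-0.46 to 0.26), Cyp2r1 (-0.0063 to 0.47), Cyp2s1 (-2.04 to 0.64) and Cyp2t4 (-1.04 to 0.097). At this depth, 0 counts allow a level of up to 0.0472 to 0.0625 CPM.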

Other observations

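Of 21 Cyp2 pseudogenes listed in the table, 9 had counts, and none of those tested passed the threshold; those named here were chosen after their values were seen. Cyp2d37-ps had 289, 212 and 272 CPM in OP and 267, 262 and 168 CPM in HFCF, overlapping between groups. Its log2 fold change was 0.15 ± 0.212 (SE; edgeR quasi-likelihood, BH-adjusted p = 0.714). Cyp2d41-ps had 3.78, 3.57 and 2.75 CPM in OP and 7.40, 8.17 and 4.82 CPM in HFCF. All 3 OP libraries lay below all 3 HFCF libraries, and the log2 fold change of -1.01 ± 0.263 narrowly missed the threshold (edgeR quasi-likelihood, BH-adjusted p = 0.0572), while the Cyp2d genes Cyp2d26 and Cyp2d40 rose. Cyp2a21-ps had 5.97, 6.79 and 3.60 CPM in OP and 0.435, 2.66 and 6.09 CPM in HFCF, so that HFCF replicate 3 lay within the OP range.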
